A study of Mus musculus with 6 samples.

Results

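Subunits of the nuclear RNA polymerases and of Mediator, with P-TEFb and the AFF scaffolds that act on Pol II after it has started, were examined as 1 group. Members were the genes whose symbol begins with Polr1, Polr2 or Polr3 followed by a letter, the numbered Med genes, and Cdk8, Cdk19, Ccnc, Aff1, Aff3, Aff4, Cdk9, Ccnt1 and Ccnt2. There were 67 of them among 23260 genes, with 28 polymerase subunits, 33 genes of Mediator and its kinase module, and 6 of P-TEFb and the AFF family. Polr2d, Cdk8 and Aff3 had been picked by the study from these same libraries, so their differences are a description and not independent evidence.

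RNA polymerases copy DNA into RNA, and each of the 3 nuclear enzymes has its own class of products. Pol I makes the ribosomal RNA precursor, Pol II makes messenger RNA, and Pol III makes transfer RNA and other short RNAs. Mediator is a multi-subunit complex that carries signals from transcription factors to Pol II, and its kinase module (CDK8 or CDK19 with cyclin C, MED12 and MED13 or their paralogs) binds reversibly to the core. P-TEFb, the kinase CDK9 with cyclin T, releases paused Pol II into elongation, and AFF proteins are scaffolds on which P-TEFb and other elongation factors are assembled. The transcripts of most, but not all, of these genes are made in most cells, and they are not markers of the salivary gland.

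Embryonic submandibular glands (eSMGs) of ICR mice at embryonic day 14 were cultured ex vivo as control, for which the sources used here name no vehicle, or with AMD3100 at 50 µM, which antagonizes the chemokine receptor CXCR4. Up to 10 whole glands, with both epithelium and mesenchyme, were pooled per tube at 6 h after treatment, and 3 tubes per group gave 3 libraries of 3′ mRNA reads each. The labels do not say whether tubes came from separate litters, so that p-values measure the spread between tubes. In bulk tissue, fewer cells of a type and less RNA per cell cannot be told apart. Library totals ranged from 9051595 to 14393031 counts, and the members took between 0.251% (95% Wilson interval 0.248 to 0.254) and 0.340% (0.337 to 0.343) of them. A gene with 3 counts, taken here as the floor, stood at between 0.208 and 0.331 CPM. Intervals and floors cover only the error of counting, since PCR copies of 1 molecule may have been counted more than once.

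Both replicate 3 libraries stood apart from the rest. The first principal component of log2 CPM held 38.2% of the variance and placed control replicate 3 at 84.8 and AMD3100 replicate 3 at 80.8, with the other 4 libraries between -78.7 and -17.4. Gland markers were present in every library. The summed level of 11 epithelial markers, of which Krt15 was the most abundant, was 2235, 2250 and 1491 CPM in control and 2696, 2348 and 3469 CPM in AMD3100-treated eSMGs. The 8 mesenchymal markers, led by Col3a1, summed to 1736 and 1494 CPM in the replicate 3 libraries and to between 3840 and 3924 CPM in the other 4. The 7 skeletal muscle markers, led by Myog, summed to 1513 and 1884 CPM in the replicate 3 libraries against 132 to 260 CPM elsewhere. No marker of these lists was at 0 in all libraries, and among them only Myod1, a muscle marker, was at 0 in any (AMD3100 replicate 2). The erythroid list (9 genes, led by Hba-a1) summed to 7243, 19395 and 11346 CPM in control and 7001, 10997 and 11900 CPM in AMD3100, the macrophage list (7 genes, led by C1qa) to 70.5 to 252 CPM, the neuron and glia list (6 genes, led by Tubb3) to 291 to 523 CPM, and the endothelial list (5 genes, led by Kdr) to 15.6 to 44.4 CPM. Of the 52 markers tested, 0 had a fold change over 1.5 with an edgeR unadjusted p-value under 0.05. With replicate number as a block 5 did (9.62%, against 4.39% of all genes), Krt15 and Sox2 higher and Twist1, Myog and Myod1 lower in AMD3100. With replicates 1 and 2 only, 5 markers passed as lower in AMD3100 (against 2.48% of all genes), Myog, Actc1, Hba-x, Hbb-y and Hbb-bh1. The groups did not overlap for 3 of the 52 markers (5.77%, against 7.44% of all genes), the epithelial Cdh1, higher in AMD3100, and the mesenchymal Osr1 and the macrophage C1qb, both lower. The part of these differences in the results below was not tested, and members that passed the thresholds below or had groups apart are also given for replicates 1 and 2 only.

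To determine whether transcripts of the transcription machinery differed after CXCR4 inhibition, AMD3100-treated eSMGs were compared with control eSMGs by edgeR's quasi-likelihood test over all 13610 genes that passed its filter on low counts. Expression is given as TMM-normalized CPM (counts scaled to a common library size), and a positive log2 fold change means a higher level with AMD3100. It is given ± the standard error of the fit. Of the 67 members, 66 were tested. Polr3c, a Pol III subunit with 20, 0 and 0 counts in control and 1, 0 and 4 counts in AMD3100, was too low. Higher and lower members were close in number. Their median log2 fold change was -0.03, with 30 higher and 36 lower, against 0.02 over all genes tested. The summed level of all members was 2660, 2783 and 3064 CPM in control and 2817, 2737 and 2788 CPM in AMD3100, so that all AMD3100 libraries lay inside the range of control. By edgeR's test 0 members, and 0 of all genes, reached an adjusted p-value under 0.05, while 228 genes were under 0.05 before adjustment and DESeq2 gave 5 genes under the adjusted threshold, none of them a member.

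With the study's thresholds, a fold change over 1.5 and an unadjusted p-value under 0.05, 3 of the 66 members passed, which is 4.55%, against 1.68% of all genes tested. Polr2d and Med31 were lower in AMD3100, where the share over all genes was 1.28%, and Aff3 was higher, where it was 0.397%. Without the 3 genes picked by the study, 1 of 63 members passed, or 1.59%, which is near the share over all genes. The groups did not overlap for 7 members (10.6%, against 7.44% of all genes). Of these, Polr2d, Med31, Cdk8, Med6 and Polr1d had all AMD3100 libraries below all control libraries (7.58% against 4.17%), and Aff3 and Med9 had them above (3.03% against 3.28%). Without the 3 picked genes, 4 of 63 did not overlap (6.35%). An exact two-sided permutation test of 3 libraries against 3 cannot give a p-value below 0.1. A fold change over 1.5 regardless of p was found for 9 of 66 members (13.6%, against 23.1% of all genes), with 4 higher (6.06% against 10.2%) and 5 lower (7.58% against 12.9%).

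The 4 alternatives given next passed between 1 and 4 members, and each passed more than 228 genes overall. DESeq2 passed the same 3 members, with 2.62% of all genes (0.918% higher and 1.7% lower). A version of the study's procedure passed 4 members, Polr2d and Cdk8 lower and Aff3 and Med9 higher, with 2.34% of all genes (0.94% higher and 1.4% lower). With replicate number as a block, 4 members passed, in all 6.06% against 4.39% of all genes. Aff3 was higher (1.52% against 1.49%) and Polr2d, Med31 and Polr2h were lower (4.55% against 2.9%). Polr2d and Aff3 passed here, with DESeq2 and by the study's procedure, and Cdk8 by the study's procedure alone. The study had picked these genes from the same libraries, and member shares without them are not given for these alternatives. With replicates 1 and 2 only, Polr2h alone passed (1.52% against 4.39%), with 0 members higher (against 1.91%) and 1 lower (against 2.48%).

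**Figure D1:**
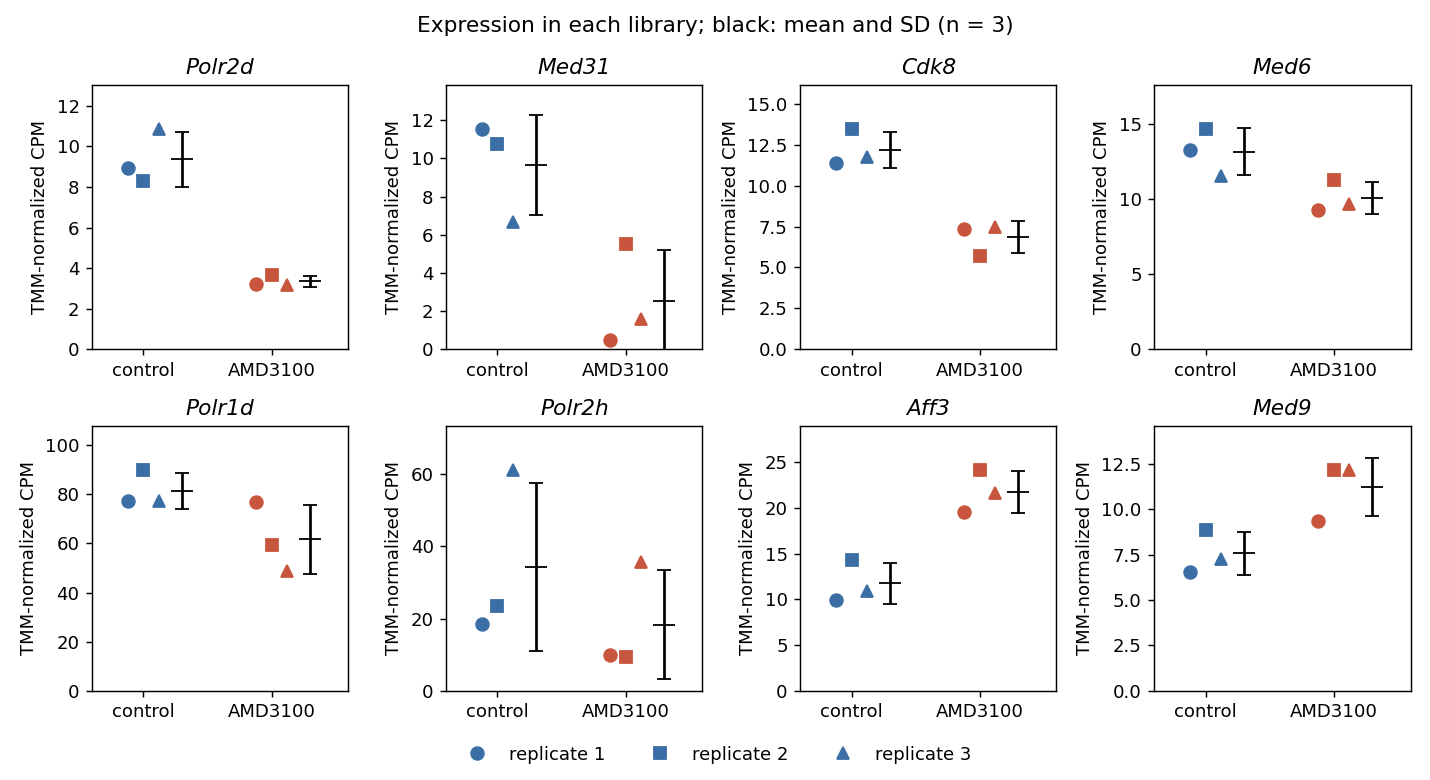
TMM-normalized CPM of 8 members in each library (y axes start at 0; symbols mark the replicate number, black bars the mean and SD of 3 libraries, and the lower SD bar of Med31 runs past the axis). The AMD3100 libraries of Polr2d lie between 3.19 and 3.68 CPM, below the lowest control library at 8.29, while the replicate 3 libraries of Polr2h are the highest of both groups.

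Polr2d encodes a subunit of the stalk of Pol II and lies on chromosome 18 from 31789125 to 31796709 (GRCm38). It was at 8.92, 8.29 and 10.9 CPM in control and at 3.22, 3.68 and 3.19 CPM in AMD3100, so that the groups lay well apart and the AMD3100 libraries were close to each other. This was a log2 fold change of -1.47 ± 0.50 (SE, 95% interval -2.62 to -0.33, edgeR unadjusted p = 0.0175 and adjusted p = 1). It was lower in all 3 same-numbered pairs, which follows from groups that do not overlap. With 1 library left out at a time it lay between -1.55 and -1.35 and passed the thresholds in 4 of these 6 fits. With replicates 1 and 2 only, the log2 fold change was -1.32 (edgeR unadjusted p = 0.112). Polr2g, the other stalk subunit, was at 59.9, 53.2 and 99.2 CPM in control and 55.3, 70.2 and 63.1 CPM in AMD3100, with overlapping groups and a log2 fold change of -0.17 ± 0.32, which turned to 0.14 with replicates 1 and 2 only.

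Med31, a small subunit of the middle module on chromosome 11 from 72211724 to 72215592, had 132, 148 and 67 counts in control and 9, 60 and 13 counts in AMD3100. In CPM this was 11.5, 10.8 and 6.67 against 0.518, 5.52 and 1.59. The groups did not overlap, but AMD3100 replicate 2 lay close to control replicate 3. This was a log2 fold change of -1.93 ± 0.84 (SE, 95% interval -3.83 to -0.02, edgeR unadjusted p = 0.0480 and adjusted p = 1). With 1 library left out at a time it lay between -3.22 (without AMD3100 replicate 2) and -1.43 (without AMD3100 replicate 1, edgeR unadjusted p = 0.0941), and it passed the thresholds in 2 of these 6 fits. It was -1.91 with replicates 1 and 2 only (edgeR unadjusted p = 0.0681).

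Aff3, which encodes a scaffold of the AFF family, spans bases 38175393 to 38630178 of chromosome 1. Aff3 was at 9.96, 14.3 and 10.95 CPM in control and 19.6, 24.1 and 21.6 CPM in AMD3100, with every AMD3100 library above the highest control library. This was a log2 fold change of 0.89 ± 0.34 (SE, 95% interval 0.11 to 1.67, edgeR unadjusted p = 0.0291 and adjusted p = 1). With 1 library left out at a time it lay between 0.78 and 1.05 and passed the thresholds in 1 of these 6 fits. With replicates 1 and 2 only it was 0.84 (edgeR unadjusted p = 0.0782). The paralogs did not share this pattern of separated groups. Aff4 was at 50.7, 39.1 and 39.0 CPM in control and 49.1, 39.5 and 41.9 CPM in AMD3100, a log2 fold change of 0.02 (95% interval -0.62 to 0.65). Aff1 had few counts, 17, 20 and 14 per control library against 116, 4 and 22 per AMD3100 library, for a log2 fold change of 1.17 ± 1.14. This rested on AMD3100 replicate 1, without which it was 0.083, and it was 0.52 with the replicate block.

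Cdk8, the kinase of the Mediator kinase module, lies on chromosome 5 from 146230795 to 146302874. It was at 11.4, 13.5 and 11.7 CPM in control and 7.36, 5.71 and 7.48 CPM in AMD3100. The groups did not overlap, and the log2 fold change of -0.83 ± 0.41 (SE, 95% interval -1.75 to 0.09) had an edgeR unadjusted p = 0.0721 and adjusted p = 1. It was -0.93 with replicates 1 and 2 only (edgeR unadjusted p = 0.128). When 50-base reads were simulated from its 3′ end, 72.7% also fitted elsewhere in the genome, so that its count may hold or lack reads of other loci. Its paralog Cdk19 was more abundant, at 64.9, 56.5 and 46.0 CPM in control and 61.7, 54.5 and 60.4 CPM in AMD3100, with a log2 fold change of 0.08 (95% interval -0.54 to 0.69). Reads of 3′ libraries come from the end of each transcript, so these levels are not scaled by length. Ccnc, the cyclin of both kinases, was at or near the floor in some libraries, with 0, 48 and 34 counts in control (0 counts allow up to 3) and 13, 2 and 23 counts in AMD3100. Its log2 fold change was -0.89 ± 1.64.

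The 4 large subunits of the kinase module did not separate the groups. Med12, which activates the kinase, had a log2 fold change of -0.05 (95% interval -0.83 to 0.74), and its paralog Med12l had 0.34 (-0.92 to 1.601), which was 0.0085 without AMD3100 replicate 2 and 0.73 without AMD3100 replicate 3. Med13, which links the module to core Mediator, was at 50.3, 55.3 and 29.0 CPM in control and 41.4, 32.2 and 23.9 CPM in AMD3100, lower in each same-numbered pair but with overlapping groups, and had a log2 fold change of -0.46 (-1.28 to 0.35). Its paralog Med13l had 0.01 (-0.82 to 0.83). Over the 7 genes of the module, 3 were higher and 4 lower.

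The promoters of Aff3, Med9, Cdk8 and Med31 are shown as the 250 bases before a RefSeq start on GRCm38.p6, read 5′ to 3′ on the strand of the gene, because these genes had the groups apart in opposite directions. That of Aff3 is at chr1:38627245-38627494 on the minus strand, that of Med9 at chr11:59947964-59948213 on the plus strand, that of Cdk8 at chr5:146231000-146231249 on the plus strand and that of Med31 at chr11:72215593-72215842 on the minus strand. The starts used for Aff3 and Cdk8 lie inside the outer limits of these genes. Capitals mark the GC box (GGGCGG on either strand), the only one found here of 5 motifs searched.
Aff3: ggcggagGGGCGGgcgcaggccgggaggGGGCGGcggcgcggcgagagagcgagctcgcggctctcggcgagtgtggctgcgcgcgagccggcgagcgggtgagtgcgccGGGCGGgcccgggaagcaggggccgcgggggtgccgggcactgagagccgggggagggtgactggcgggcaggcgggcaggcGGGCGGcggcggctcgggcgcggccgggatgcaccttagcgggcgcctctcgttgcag
Med9: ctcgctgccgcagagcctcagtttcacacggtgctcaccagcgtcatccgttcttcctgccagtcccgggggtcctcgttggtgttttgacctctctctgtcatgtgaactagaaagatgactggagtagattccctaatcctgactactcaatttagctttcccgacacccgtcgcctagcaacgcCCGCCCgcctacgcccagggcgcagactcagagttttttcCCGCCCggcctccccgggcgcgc
Cdk8: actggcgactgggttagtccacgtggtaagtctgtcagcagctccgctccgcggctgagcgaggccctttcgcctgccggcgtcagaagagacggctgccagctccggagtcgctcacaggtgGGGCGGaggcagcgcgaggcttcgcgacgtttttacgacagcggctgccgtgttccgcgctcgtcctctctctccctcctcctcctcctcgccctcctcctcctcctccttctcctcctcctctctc
Med31: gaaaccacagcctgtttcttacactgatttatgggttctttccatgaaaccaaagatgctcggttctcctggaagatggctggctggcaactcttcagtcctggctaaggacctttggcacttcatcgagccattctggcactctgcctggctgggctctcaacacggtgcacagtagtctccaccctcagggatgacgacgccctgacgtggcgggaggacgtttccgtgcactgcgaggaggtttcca

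The GC box occurred 4 times in the window of Aff3, 2 times in that of Med9, once in that of Cdk8 and not in that of Med31. No window is shown for Polr2d, Med6 and Polr1d, which were also lower with groups apart. Whether the motif goes with the direction of a difference was not tested. RefSeq promoters were found for 56 members (63 windows). The GC box was in 65.1% of the member windows and in 32.7% of all 32851 windows of this length. The ETS core (CCGGAAG) was in 20.6% against 6.91%, the CCAAT box (CCAAT) in 33.3% against 33.8%, the TATA box (TATAAA) in 7.94% against 12.4% and the palindromic NRF1 motif in 0% against 0.782%. Both strands were searched, and no motif is contained in another. The median GC content was 59.6% in member windows and 52.4% in all windows. A match of letters is not a bound site, and promoter activity was not measured.

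Among the other Mediator subunits, Med9 and Med6 had groups that did not overlap. Med9, of the middle module, was at 6.56, 8.87 and 7.27 CPM in control and 9.37, 12.1 and 12.1 CPM in AMD3100. The fitted log2 difference was 0.57 ± 0.41 (SE, edgeR unadjusted p = 0.205), or 0.47 with replicates 1 and 2 only. Med9 was higher in all 3 pairs, which follows from groups that do not overlap. Med6, of the head module, was at 13.3, 14.7 and 11.5 CPM in control and 9.26, 11.3 and 9.69 CPM in AMD3100. The gap between the nearest libraries was small, and the fitted log2 difference was -0.39 ± 0.37 (SE, edgeR unadjusted p = 0.326), or -0.45 with replicates 1 and 2 only. Of the 26 core Mediator subunits, 8 were higher and 18 lower, with a median log2 fold change of -0.07. In the head module 2 were higher and 6 lower (median -0.12), in the middle module 2 and 6 (median -0.07), and in the tail, where activators bind, 3 and 2 (median 0.19). Med14, the scaffold of the complex, had a log2 fold change of -0.19 (95% interval -1.06 to 0.69), and Med1, which binds nuclear receptors, of -0.14 (-0.81 to 0.53).

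Some Mediator subunits varied widely between tubes. Med23, a tail subunit, had 86, 314 and 243 counts in control and 247, 1 and 228 counts in AMD3100, so that a single AMD3100 library was almost without reads. Med17, at the centre of the head module, was also lowest in AMD3100 replicate 2, with 5.80 CPM against 26.2 and 40.2 CPM in the other AMD3100 libraries. Its log2 fold change was -0.41 and lay between -1.002 and 0.06 with each library left out. Over the members tested, the median coefficient of variation between replicates was 27.4% in control and 28.6% in AMD3100.

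**Figure D2:**
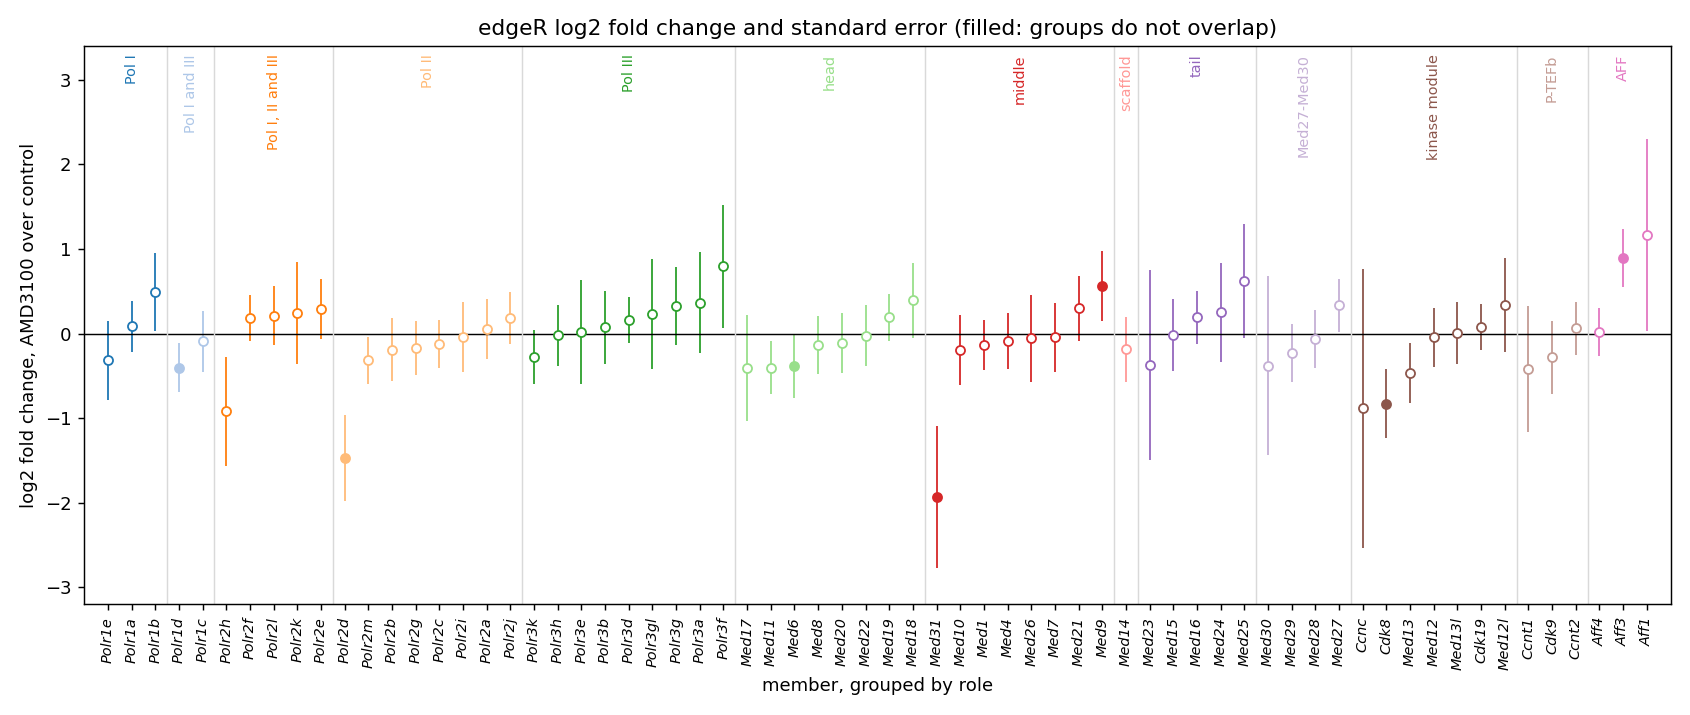
edgeR log2 fold change of the 66 members tested (y axis) with its standard error (bars), grouped by role on the x axis; filled points mark members whose groups do not overlap. Polr2d and Med31 lie farthest below 0, at -1.47 and -1.93, and the error bars of most members include 0.

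Subunits of the polymerases were described by enzyme. The largest subunits, which carry much of each catalytic centre, differed between groups by less than their standard errors. Polr2a, of Pol II, was at 111, 70.8 and 55.8 CPM in control and 85.7, 101 and 60.2 CPM in AMD3100, a log2 fold change of 0.05 (95% interval -0.74 to 0.85). Polr1a, of Pol I, was at 32.8, 29.2 and 23.3 CPM in control and 30.1, 34.2 and 26.0 CPM in AMD3100, a log2 fold change of 0.08 (-0.60 to 0.77). Polr3a, of Pol III, had 0.37 (-0.98 to 1.71). Over all members tested, the interval of 28 lay within a 2-fold change in either direction. The share over all genes is not given here, so this count is no result about the members. The median standard error was 0.37 for members and 0.50 over all genes tested.

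Pol II subunits were the most abundant role, with a sum of 708, 621 and 695 CPM in control and 643, 684 and 547 CPM in AMD3100. Polr2c, which takes part in assembly of the enzyme, had the highest mean of any member, at 201 ± 42.9 CPM in control and 185 ± 18.9 CPM in AMD3100 (SD, n = 3 each). Of the 8 Pol II genes, 2 were higher and 6 lower, with a median log2 fold change of -0.15. Polr2d was thus a low member of an abundant set, at rank 61 of 67 by mean level. Polr2m, whose product associates with Pol II and blocks its activity in the absence of Mediator, had a log2 fold change of -0.32 ± 0.28 and was lower in all 3 pairs.

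Of the 5 subunits shared by all 3 polymerases, 4 had log2 fold changes between 0.18 and 0.29. The exception was Polr2h, at 18.5, 23.5 and 61.1 CPM in control and 9.83, 9.20 and 35.7 CPM in AMD3100. The groups overlapped, since the replicate 3 library was the highest of each group, but AMD3100 was lower in every same-numbered pair. The fitted log2 difference was -0.92 ± 0.65 (SE, edgeR unadjusted p = 0.188). Blocking on replicate number gave -1.01 (edgeR unadjusted p = 0.00283 and adjusted p = 0.409), and with replicates 1 and 2 only it was -1.15 (edgeR unadjusted p = 0.0258). Without control replicate 3 it was -0.20 (edgeR unadjusted p = 0.758), and without AMD3100 replicate 3 it was -1.87 (edgeR unadjusted p = 0.0088), fits that leave 1 group without its high replicate 3 library. Of its simulated reads, 27.3% matched another gene, 2700097O09Rik, as well. No member had an adjusted p-value under 0.05 with the block by edgeR (3 of all genes did).

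Pol I and Pol III share 2 subunits, Polr1c and Polr1d. Polr1d was at 77.4, 89.8 and 77.2 CPM in control and 76.8, 59.4 and 48.7 CPM in AMD3100, so that the groups were apart by less than 1 CPM. Its fitted log2 difference was -0.40 ± 0.29 (SE, edgeR unadjusted p = 0.195), or -0.30 with replicates 1 and 2 only, and 81.8% of its simulated reads matched other places. Polr1c had a log2 fold change of -0.09. Of the Pol I subunits among the members, Polr1a and Polr1b were higher and Polr1e lower, and no group was apart. Subunits of Pol I and Pol III under other symbols are not members and stand in the lists described below. Rn45s, the ribosomal RNA precursor made by Pol I, took 32.4%, 27.5% and 20.2% of counts in control and 16.2%, 32.5% and 22.7% in AMD3100, with a log2 fold change of -0.15 ± 0.38. As poly(A) priming is not meant to capture it, this share is not a measure of Pol I activity. Of the 9 Pol III subunits tested as members, 7 were higher and 2 lower, with a median log2 fold change of 0.16. Polr3g and Polr3gl encode alternative forms of a subunit. Polr3g was at 7.69, 12.3 and 5.38 CPM in control and 10.3, 9.85 and 11.6 CPM in AMD3100, a log2 fold change of 0.32 (95% interval -0.72 to 1.36), which was 0.0043 with replicates 1 and 2 only. Polr3gl was at 10.3, 15.9 and 42.9 CPM and 19.6, 11.96 and 49.9 CPM, a log2 fold change of 0.24 (-1.24 to 1.71).

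Of the P-TEFb genes, Cdk9 and Ccnt2 were higher in both replicate 3 libraries than in the other 4. Cdk9 was at 55.1, 55.1 and 124 CPM in control and 55.2, 43.9 and 93.8 CPM in AMD3100, highest in the replicate 3 library of each group, with a log2 fold change of -0.28 (95% interval -1.26 to 0.70). Of its simulated reads, 81.8% matched other places. Ccnt2 had a log2 fold change of 0.06 (-0.64 to 0.77). Ccnt1, with 22 to 106 counts per library, had -0.42 (-2.11 to 1.27). The summed level of the AFF genes was 62.1, 54.8 and 51.4 CPM in control and 75.3, 64.0 and 66.2 CPM in AMD3100, all above control, and Aff3 made up the difference for the most part.

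**Figure D3:**
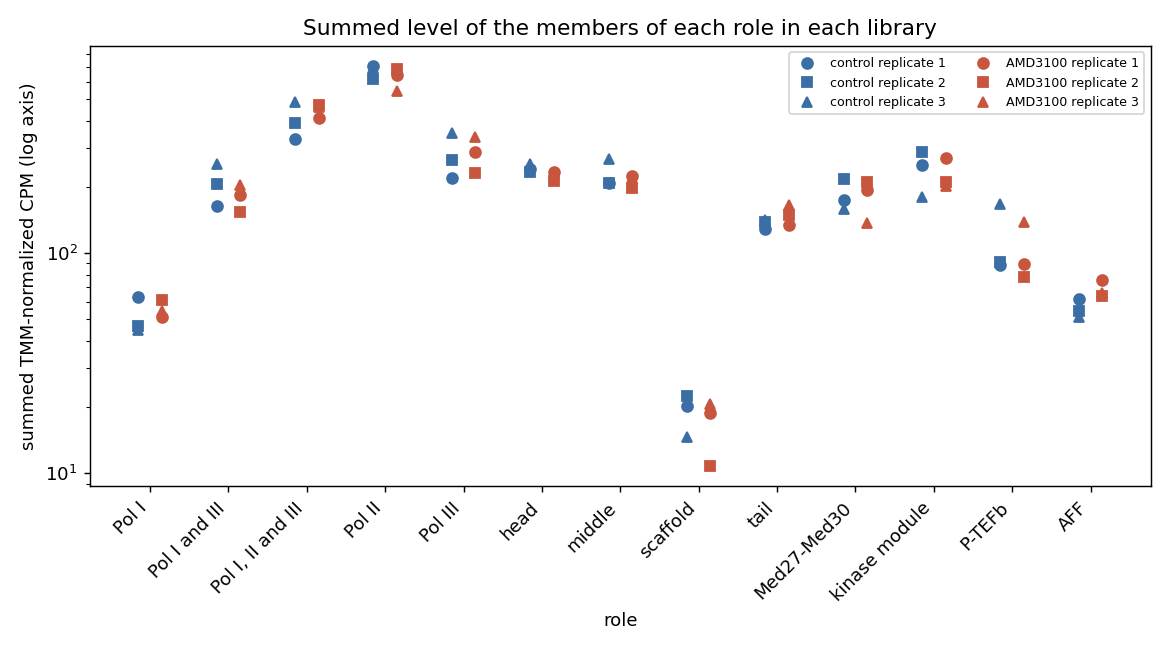
Summed TMM-normalized CPM of the members of each role (y axis, log scale) in each library (points; colour marks the group, symbol the replicate number). The groups overlap in each role but the AFF genes, and the replicate 3 libraries are the highest of their group for P-TEFb at 167 and 138 CPM.

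The separation of the replicate 3 libraries was seen in many members. For 33 of the 66 members, both replicate 3 libraries lay beyond the other 4 libraries on the same side, which is 50%, against 44.2% of all genes. They were higher for 18 members (27.3% against 23.1%) and lower for 15 (22.7% against 21.1%). Higher members included 4 of the 5 subunits shared by all polymerases (Polr2f, Polr2h, Polr2k and Polr2l) as well as Cdk9 and Polr3gl. Lower members included Polr2a, Polr2b, Polr1a, Med13, Med13l, Med12l, Med15 and Med25. The longest coding transcript had a median of 1738 bases in the higher and 4145 bases in the lower members, against 2549 and 3514 bases over all genes of the same 2 classes. Length was taken from GENCODE vM1 and was not tested as a cause.

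**Figure D4:**
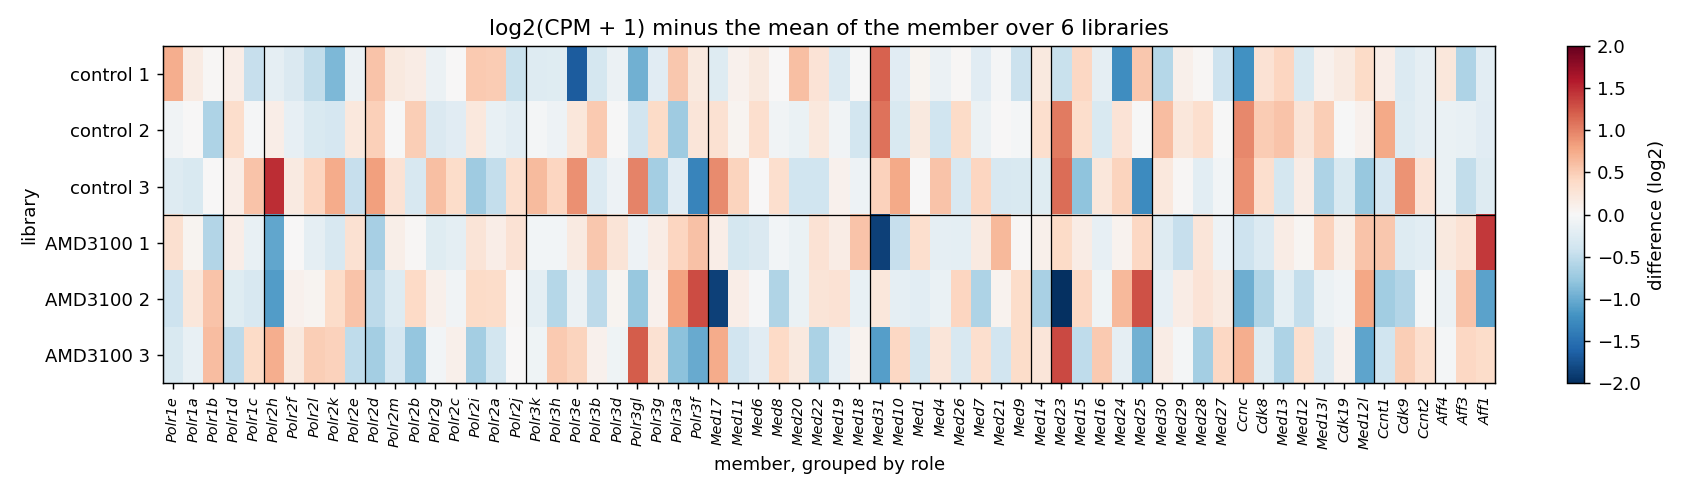
log2(CPM + 1) of each of the 66 members tested (columns, grouped by role) in each library (rows), as the difference from the mean of the member over the 6 libraries, with colours limited to 2 in either direction. The 2 rows of replicate 3 resemble each other, with 18 members higher and 15 lower than in all other libraries, whereas Polr2d, Cdk8 and Med31 are lower in the AMD3100 rows and Aff3 and Med9 higher.

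The remaining genes of the pathway were taken from 6 lists with 114 genes, all of them tested. The lists were general transcription factors, elongation factors, Pol I and Pol III factors (each with subunits under other symbols), Integrator, and assembly factors and phosphatases. The median log2 fold change was -0.01, with 56 higher and 58 lower, and 4 passed the study's thresholds (3.51%, against 1.68% of all genes), 1 higher and 3 lower. No list had a median beyond -0.15 to 0.09. Gtf2f1, the large subunit of the initiation factor TFIIF, was at 17.7, 22.3 and 28.6 CPM in control and 35.7, 37.5 and 40.5 CPM in AMD3100, a log2 fold change of 0.73 ± 0.31 (SE, edgeR unadjusted p = 0.0430 and adjusted p = 1), and 0.87 with replicates 1 and 2 only (edgeR unadjusted p = 0.0221). Tcea1, which rescues stalled Pol II, was at 15.2, 22.0 and 26.1 CPM in control and 14.6, 4.51 and 8.58 CPM in AMD3100, a log2 fold change of -1.19 ± 0.49, with 54.5% of simulated reads shared with other places. Taf4a, a subunit of TFIID, had 112, 57 and 22 counts in control and 32, 5 and 6 counts in AMD3100, a log2 fold change of -2.38 ± 0.98. Gpn2, a GTPase linked to assembly of polymerases, had 65, 52 and 104 counts in control and 0, 6 and 9 counts in AMD3100, a log2 fold change of -3.62 ± 1.28. For these 4 genes the groups did not overlap. With replicate number as a block, 7 of the 114 genes passed (6.14%, against 4.39% of all genes), as Taf6, Ints8 and Rpap1 were added. With replicates 1 and 2 only, 4 of 113 passed (3.54%, below the 4.39% of all genes), of which Gtf2f1 was the only one of these 4 genes. The edgeR unadjusted p-values of Tcea1, Taf4a and Gpn2 in those libraries were 0.125, 0.0544 and 0.0619.

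Most members had a 3′ end whose sequence was their own. Simulated reads from the 3′ end of 54 of the 66 members with an annotated end matched no other place, 12 shared some reads and 4 shared over 50%, namely Cdk8, Cdk9, Polr1d and Polr2k. No simulated read of Polr2d, Med31, Aff3, Med9 or Med6 was shared. A gene on the opposite strand overlapped the 3′ end of 13 members, none of them among the 7 whose groups did not overlap.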

How the data were processed

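The authors deposited raw read counts per gene symbol for each of 6 3′ mRNA libraries (50-base single reads), without normalization. The submitters' processing notes name Bowtie2, edgeR and the build mm10; versions, the counting tool, its strand setting and the annotation are not given in the sources used here. Of 23282 lines per file, 22 repeats with identical counts were left out. Groups and replicate numbers came from the sample titles. Counts were tested with edgeR 4.0.16 in R 4.3.3 (TMM, filterByExpr, glmQLFit, glmQLFTest, condition as the only term, Benjamini-Hochberg adjustment over all 13610 genes tested). The biological coefficient of variation was 0.579.

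Same-numbered libraries deviated together from their group means, with correlations of 0.185, 0.171 and 0.584 across genes, so replicate number was used as a block in an alternative, although replicates 1 and 2 correlated as well when crossed (0.198 and 0.146). Other alternatives were DESeq2 1.42.0, other normalizations and filters, robust estimation, each library left out, replicates 1 and 2 only, Rn45s left out, and a version of the study's procedure (quantile normalization of log2(count + 1) by limma 3.58.1, with an equal-variance test). The fits were tested on simulated data. The members, lists and named genes were chosen with earlier results of these data known. Genes picked by the study, members past the unadjusted threshold or with groups apart, the largest subunits, and paralogs were described singly. Not all of them were given the same statistics. Polr2h and other members were named after their values were seen.

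Reads of 50 bases, every 25 bases over the last 300 bases of each transcript, were aligned to NCBIM37 with minimap2 2.31-r1302. Positions are those of RefSeq on GRCm38.p6. A result for 1 marker gene is not reported here.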

Additional observations from a re-analysis of the deposited data

How the results depend on the processing

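In the main analysis 3 members passed both thresholds. The number was between 2 and 4 with DESeq2, the replicate block, the study's procedure, and the other normalizations, filters and estimation tried. It fell to 1 with replicates 1 and 2 only (Polr2h alone), and lay between 0 and 2 with each library left out. Without AMD3100 replicate 1 no member passed, and without control replicate 1 or control replicate 3 a single member did. Over all genes, 228 passed, against 479 with DESeq2, 598 with the replicate block, 429 by the study's procedure and 613 with replicates 1 and 2 only, and between 163 and 547 with each library left out. An adjusted p-value under 0.05 was reached by 0 genes, against 5 with DESeq2 and 3 with the replicate block, none of them members. The block changed the call of no named member other than Polr2h.

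Polr2d, Med31, Aff3, Cdk8, Med9, Med6 and Polr1d kept their direction in every alternative run. These members were named for groups that did not overlap, so leaving out libraries could hardly turn them. Their stability is therefore no separate support. With 1 library left out at a time, 39 of the 66 members tested turned direction at least once, and in 0 of them was the log2 fold change larger than its standard error. Med13l was at -0.0068 with upper quartile normalization, -0.0036 with at least 10 counts in every library, -0.022 by the study's procedure and -0.10 with replicates 1 and 2 only. With replicates 1 and 2 only, Cdk19 was at -0.068 and Aff4 at -0.023. With 1 library left out at a time, log2 fold changes ranged from -0.036 to 0.19 for Polr1a, -0.14 to 0.37 for Polr2a, -0.014 to 0.82 for Polr3a, -0.038 to 0.20 for Cdk19, -0.076 to 0.15 for Aff4, -0.26 to 0.16 for Med12, -0.25 to 0.29 for Med13l, -0.56 to 1.06 for Polr3gl, -0.13 to 0.24 for Ccnt2, and -0.67 to 0.23 for Cdk9. Polr2g ranged from -0.34 to 0.16, Polr3g from 0.089 to 0.70, Med12l from 0.0085 to 0.73, Ccnt1 from -1.04 to -0.0033 and Ccnc from -2.27 to -0.37. Polr2h lay between -1.87 and -0.20 and Aff1 between 0.083 and 1.70. Med14 ranged from -0.37 to 0.059, so that its direction turned, and Med1 from -0.38 to -0.010. The cause was not tested, other than that these fits hold fewer libraries.

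Counts were low for Polr3c, Ccnc, Aff1, Med30 and Ccnt1, whose mean was under 5 CPM, and the part of depth in this was not tested. The precision for these genes was low, and detectability was not tested.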
